A study of Sus scrofa with 12 samples.

Results

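The genes described here carry the secretory pathway of the pig liver: the machinery that brings new proteins into the endoplasmic reticulum (ER), processes them there and sends them on to the Golgi. They were chosen by gene symbol, from families and named subunits of that machinery (SRP, SEC, SSR, SPCS, PDIA, ARF, TMED, LMAN and COP genes, with RPN1, DAD1, DDOST and LRRC59). Earlier results of these data were known when the genes were chosen, so the counts below do not come from a blind choice. The choice gave 57 of the 6765 genes that the array names with a single symbol. RPN2 and COPE, which the same rule asks for, were not analysed here.

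Livers came from 12 adult pigs of the German Landrace breed, and the RNA of each was hybridised to an Affymetrix porcine array of its own. The labels grade each animal as low or high in stress response and as low or high in aggressiveness, which gives 4 groups of 3 animals, each with 1 female and 2 males. All 12 animals are of the same breed, no treatment or genotype is labelled, and the labels do not say how either trait was scored. Groups are named below with stress response first, so that high-low 1 is an animal with a high stress response and low aggressiveness, and the number only names the animal. The question is whether the livers of animals that differ in stress response, in aggressiveness or in both differ in these genes.

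A protein bound for secretion starts on a ribosome that the signal recognition particle docks at the ER membrane. It passes through the SEC61 channel, loses its signal peptide, gains sugars and disulfide bonds, and leaves in vesicles coated with COPII, while COPI vesicles bring escaped residents and receptors back. Hepatocytes make most of the proteins of blood plasma, so this route is heavily used in liver.

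The values are probe set signals, a linear intensity that the authors had scaled to the same trimmed mean on every array. Tests were run on log2(signal + 16) with limma, and fold changes below are on that log2 scale, high minus low, with the standard error (SE). Signals of different probe sets are not compared with each other as levels. Correlations between arrays lay between 0.945 and 0.975, and the arrays of high-high 3 and high-low 3 correlated least with the others. Their median correlations were 0.9527 and 0.9567, and those of low-high 3 (0.9572) and low-low 3 (0.9583) were close to the latter. All 12 hepatocyte markers measured were strongly expressed, among them ALB at a mean signal of 47289 and APOA1 at 55567. Of the markers of plasma cells and B cells, which are secretory cells themselves, JCHAIN had a mean signal of 948, while CD79B at 39.5 and TNFRSF17 at 24.9 were under the filter on low signals. In whole liver, fewer cells of a type and less RNA per cell cannot be told apart.

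Of the 57 genes, 55 passed the filter on low signals. The exceptions were COPB2, a subunit of the COPI coat with a mean signal of 28.1, and LMAN2L, a cargo lectin with a mean of 35.7, and neither was tested. In animals with a high stress response, 47 of the 55 genes had a higher mean than in animals with a low one (85.5%, against 55.7% of all 15999 probe sets tested). The median difference was 0.17 for the 55 genes and 0.03 for all probe sets. At an unadjusted p under 0.05, 9 genes were higher and 2 lower, where the background was 5.03% of probe sets higher and 3.13% lower. The 9 include SPCS2, which passed the filter mainly through the animals with a high stress response. After Benjamini-Hochberg adjustment over all probe sets, limma called 0 of the 55 genes and 0% of all probe sets; the lowest adjusted p was 0.522 among the 55 and 0.339 among all, and none of the differences below passed the test.

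**Figure D1:**
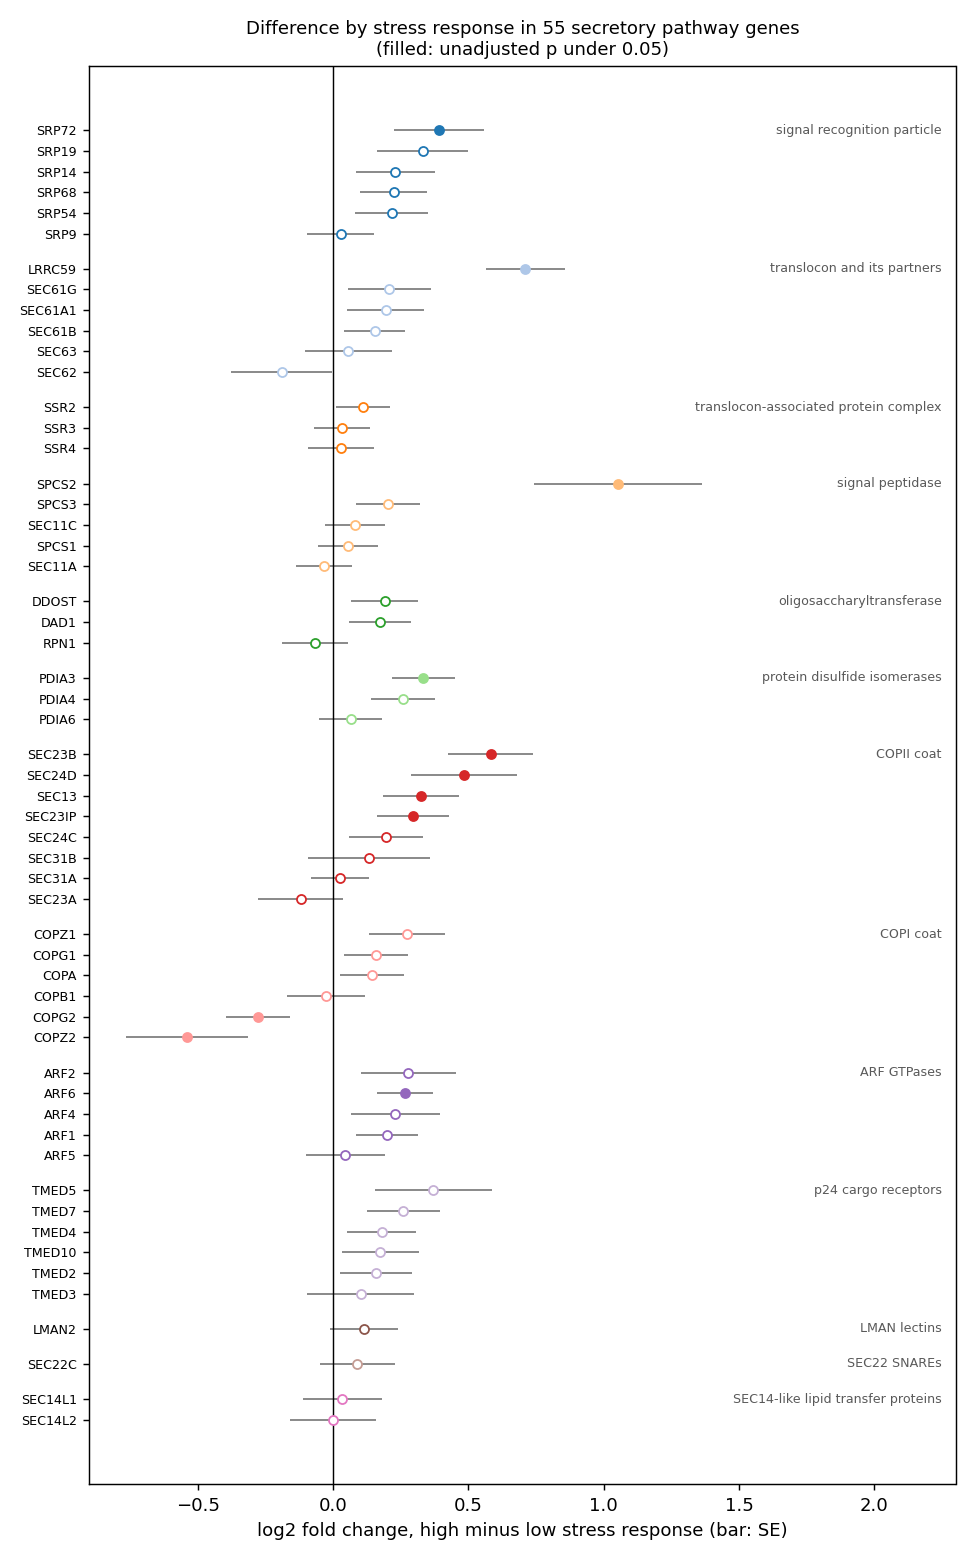
Difference between high and low stress response for each of the 55 genes tested (x axis, log2 fold change, 6 animals against 6; bars are the SE), grouped by role, with filled points for an unadjusted p under 0.05. Points lie to the right of 0 for 47 genes, and the 2 filled points to the left are the COPI genes COPG2 and COPZ2.

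The signal recognition particle is the ribonucleoprotein that finds signal peptides on ribosomes. All 6 of its protein genes measured had a higher mean at high stress response, with a median difference of 0.23. SRP72, which with SRP68 forms the largest protein pair of the particle, had signals of 1666, 1847 and 2949 (lowest, median and highest) at high stress response and of 1076, 1553 and 1906 at low. All 6 animals of the high level were above the median of the low level, although the ranges overlapped, and the highest signal was that of high-high 3. The difference was 0.39 ± 0.17 (SE, n = 6 and 6, limma, adjusted p = 0.583), and it was 0.28 without high-high 3. For SRP14, part of the domain that slows translation, the signals ran from 3230 to 5324 at high stress response and from 2779 to 3895 at low, with a difference of 0.23 ± 0.15. SRP68 differed by 0.22 ± 0.12. SRP19, needed to assemble the particle, differed by 0.33 ± 0.17 and SRP54, the GTPase that binds the signal peptide, by 0.22 ± 0.13. SRP9, the partner of SRP14, differed by only 0.03 ± 0.12.

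LRRC59, a ribosome-binding protein of the ER membrane, had the smallest p of all 55 genes. Its signals at low stress response were 2359, 1645 and 2175 in the low-low animals and 2248, 2231 and 1896 in the low-high animals. At high stress response they were 3905, 3277 and 3310 in the high-low animals and 3256, 2485 and 4578 in the high-high animals. Every animal of the high level was above every animal of the low level, at either aggressiveness. The means were 3469 ± 707 (SD, n = 6) against 2092 ± 268, a difference of 0.71 ± 0.15 (limma, adjusted p = 0.522). Over 27 other settings of the analysis, the difference stayed between 0.57 and 0.80 with an unadjusted p under 0.05 each time.

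The SEC61 channel is the pore through which the chain enters. SEC61B, a small subunit, had signals of 14203, 16659 and 20353 (lowest, median and highest) at high stress response and of 13693, 15181 and 16103 at low. The upper end of the high level lay above every low animal and the lower end did not. The differences were 0.15 ± 0.11 for SEC61B, 0.19 ± 0.14 for the pore subunit SEC61A1 and 0.21 ± 0.15 for the small subunit SEC61G. SEC63, a membrane protein that recruits an ER chaperone to the channel, differed by 0.06 ± 0.16, and its partner SEC62 by -0.19 ± 0.19. The translocon-associated protein complex sits beside the channel, and its measured subunits SSR2, SSR3 and SSR4 differed by 0.11 ± 0.10, 0.03 ± 0.10 and 0.03 ± 0.12. SSR2 ranged from 14208 to 17985 at high stress response and from 12851 to 15909 at low, so the levels overlapped.

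Signal peptidase removes the signal peptide in the ER lumen. SPCS2, an accessory subunit, had signals near background. They were 34.6, 15.5 and 69.6 in the low-low animals and 8.61, 13.6 and 72.6 in the low-high animals. At high stress response they were 66.8, 63.3 and 77.5 (high-low) and 99.3, 80.4 and 87.1 (high-high). Among the animals with a low stress response, 4 were below every animal with a high one and low-low 3 and low-high 3 lay within their range. Those 4 signals were also under 40.6, the signal that corresponds to the lowest mean log2 value kept. SPCS2 thus passed the filter through the remaining animals, mostly those with a high stress response, and its call is not independent of that filter. The difference was 1.05 ± 0.31 (limma, adjusted p = 0.523), but its size depended on the constant added before the logarithm and on the settings, from 0.56 to 1.53, and with the lowest 50% of probe sets left out it was not tested. The other subunits showed little difference: SPCS1 0.05 ± 0.11, SPCS3 0.20 ± 0.12, and the catalytic subunits SEC11A -0.03 ± 0.10 and SEC11C 0.08 ± 0.11. SPCS1 ran from 16293 to 20833 at high stress response and from 16441 to 18755 at low.

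Oligosaccharyltransferase adds the first sugar tree to the growing chain. Its subunits DAD1 and DDOST differed by 0.17 ± 0.12 and 0.19 ± 0.12, and RPN1 by -0.07 ± 0.12. DAD1 had a mean of 17866 ± 1497 (SD, n = 6) at high stress response and of 15880 ± 1829 at low, and 5 of the 6 high animals were above the median of the low ones.

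Protein disulfide isomerases form and rearrange disulfide bonds in the ER. PDIA3, also called ERp57, which acts on glycoproteins held by calnexin and calreticulin, had signals of 9234, 10727 and 13545 (lowest, median and highest) at high stress response against 7714, 8877 and 9702 at low. Every high animal except high-low 2 was above every low animal. The difference was 0.33 ± 0.11 (limma, adjusted p = 0.545), and the 2 further PDIA3 probe sets gave 0.39 ± 0.12 and 0.35 ± 0.20. For PDIA4 the difference was 0.26 ± 0.12 (limma, adjusted p = 0.614), and its 2 further probe sets gave 0.40 ± 0.14 and 0.16 ± 0.13. PDIA6 showed a mean of 14948 ± 278 against 14388 ± 2013, a difference of 0.07 ± 0.12, with a far wider spread between animals at low stress response than at high.

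**Figure D2:**
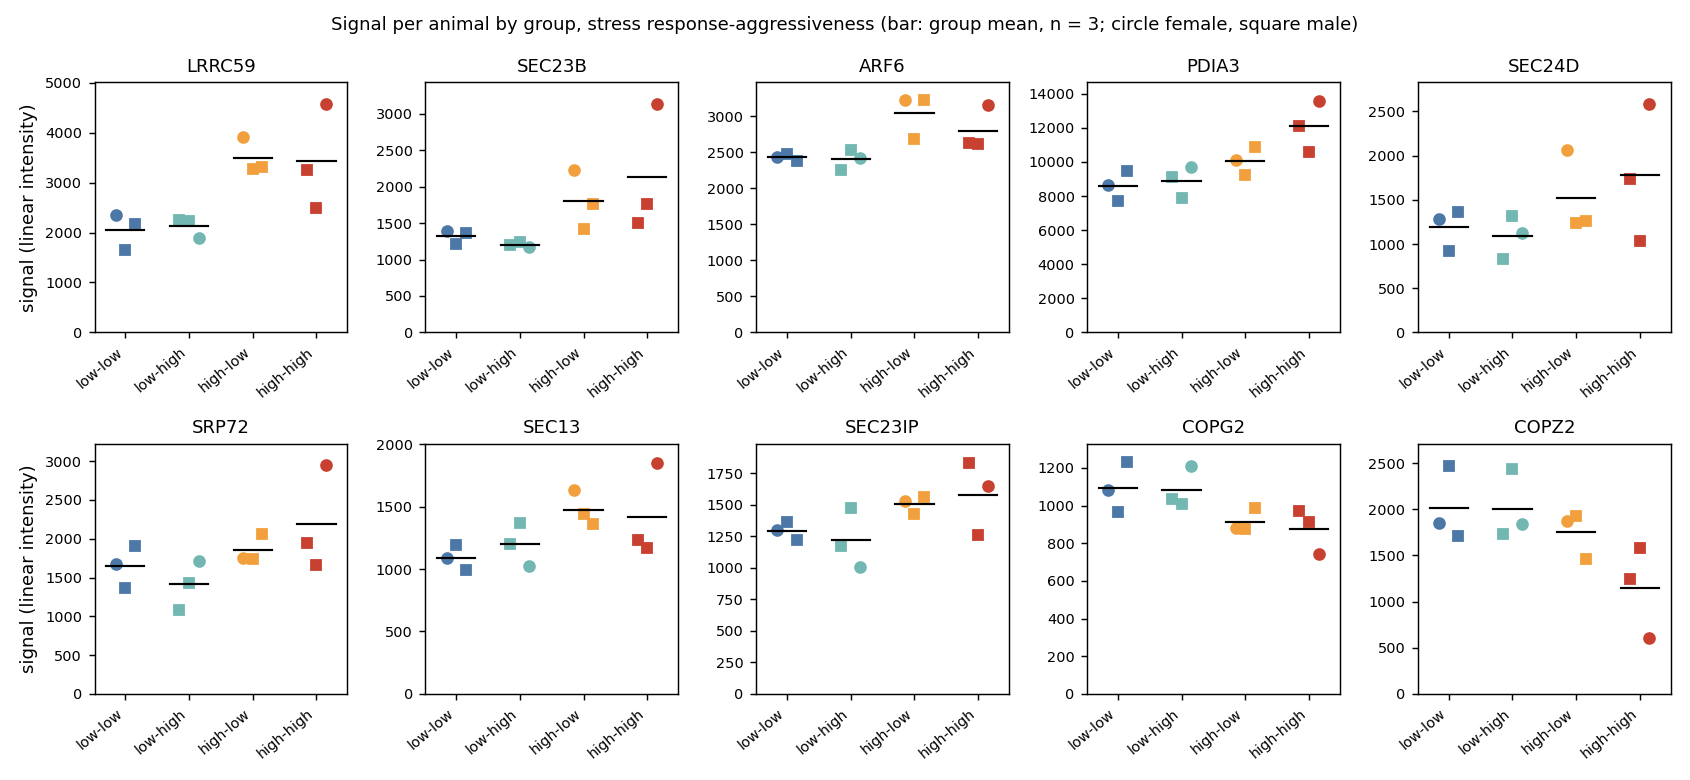
Signal of each animal (y axis, linear intensity) for 10 genes with an unadjusted p under 0.05 for stress response, by group (x axis, stress response first; bars are means of 3 animals, circles females, squares males). For LRRC59, SEC23B and ARF6 every animal with a high stress response lies above every animal with a low one, while COPG2 and COPZ2 lie lower on average.

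COPII coats bud vesicles from the ER, and 7 of the 8 COPII genes had a higher mean at high stress response, with a median difference of 0.25. At an unadjusted p under 0.05, 4 were higher. Over all probe sets 55.7% had a higher mean and 5.03% were higher at that threshold. Over 27 other settings, SEC23B stayed under that threshold in all 27, SEC24D in 17, SEC13 in 15 and SEC23IP in 11. SEC23B, an inner coat subunit that drives GTP hydrolysis by SAR1, had signals of 1387, 1211 and 1366 in the low-low animals and of 1198, 1237 and 1175 in the low-high animals. The signals were 2222, 1425 and 1756 in the high-low animals and 1499, 1763 and 3140 in the high-high animals. Each animal with a high stress response was above all those with a low one, with high-high 3 well above the rest. The difference was 0.58 ± 0.16 (limma, adjusted p = 0.523), and 0.45 without high-high 3. SEC23A, the closest relative of SEC23B, differed by -0.12 ± 0.16, and its further probe set by -0.18 ± 0.18.

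SEC24D, which picks cargo for the coat, had signals of 1039, 1497 and 2581 (lowest, median and highest) at high stress response and of 827, 1200 and 1357 at low. High-high 2 was below the median of the low level, and high-low 1, high-high 1 and high-high 3 were above every low animal. The difference was 0.49 ± 0.20 (limma, adjusted p = 0.572), and its relative SEC24C differed by 0.20 ± 0.14. SEC13, of the outer coat cage, had 1167, 1399 and 1848 at high and 991, 1140 and 1372 at low stress response, a difference of 0.32 ± 0.14 (limma, adjusted p = 0.586). SEC23IP, which joins the inner and outer coat at exit sites, had 1263, 1546 and 1829 at high and 1007, 1259 and 1470 at low, a difference of 0.30 ± 0.13 (limma, adjusted p = 0.603). In both genes all 6 high animals were above the median of the low level, with overlapping ranges. The cage subunits SEC31A and SEC31B differed by 0.03 ± 0.11 and 0.13 ± 0.22, and SEC31A ran from 5130 to 6615 at high stress response and from 5534 to 6324 at low.

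COPI coats work in the opposite direction, from the Golgi back to the ER, and here the genes divided. COPZ1, COPG1 and COPA differed by 0.27 ± 0.14, 0.16 ± 0.12 and 0.15 ± 0.12, COPB1 by -0.03 ± 0.15, and both genes for the alternative forms of the gamma and zeta subunits had a lower mean at high stress response. COPZ2 had signals of 607, 1518 and 1929 (lowest, median and highest) at high stress response and of 1714, 1845 and 2463 at low. The lowest value was that of high-high 3. The difference was -0.54 ± 0.22 (limma, adjusted p = 0.577), and -0.33 without high-high 3. COPG2 had 742, 899 and 985 at high against 965, 1058 and 1229 at low, so that all 6 high animals were below the median of the low level. Its difference was -0.28 ± 0.12 (limma, adjusted p = 0.58). COPG1, by contrast, ran from 2665 to 3730 at high stress response and from 2700 to 3389 at low.

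ARF GTPases recruit coats to membranes, and all 5 measured had a higher mean at high stress response. ARF6, which acts at the plasma membrane and endosomes, had signals of 2427, 2479 and 2375 in the low-low animals and of 2259, 2525 and 2421 in the low-high animals. In the high-low animals they were 3225, 2687 and 3224, and in the high-high animals 2623, 2613 and 3159. No animal of the low level reached the lowest of the high level, though high-high 2 and the highest low animal were close. The difference was 0.27 ± 0.10 (limma, adjusted p = 0.572). The Golgi ARFs differed by 0.20 ± 0.11 (ARF1), 0.28 ± 0.18 (ARF2), 0.23 ± 0.16 (ARF4) and 0.05 ± 0.14 (ARF5). ARF4 ran from 12826 to 21846 at high and from 12086 to 17361 at low stress response, with 5 of 6 high animals above the median of the low level.

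The p24 proteins are cargo receptors that cycle between ER and Golgi. All 6 measured had a higher mean at high stress response, by 0.16 ± 0.13 (TMED2), 0.10 ± 0.20 (TMED3), 0.18 ± 0.13 (TMED4), 0.37 ± 0.22 (TMED5), 0.26 ± 0.14 (TMED7) and 0.18 ± 0.14 (TMED10), and none had an unadjusted p under 0.05. TMED2 ran from 10277 to 16957 at high stress response and from 9725 to 13372 at low. The 2 further probe sets of TMED4 gave 0.37 ± 0.12 and 0.15 ± 0.14. The first of these had an unadjusted p under 0.05 (limma), unlike the counted one. Among the remaining genes, the cargo lectin LMAN2 differed by 0.11 ± 0.13, the SEC22 family member SEC22C by 0.09 ± 0.14, and SEC14L1 and SEC14L2, lipid-binding proteins that share only a name with this route, by 0.03 ± 0.15 and -0.00 ± 0.16. LMAN2 ran from 6944 to 9475 at high and 6348 to 8774 at low, SEC22C from 101 to 186 and 117 to 150, and SEC14L2 from 4026 to 6573 and 4596 to 6447.

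LRRC59, SEC23B and ARF6 were the genes in which all 6 animals with a high stress response exceeded all 6 with a low one. They are 3 of 55, or 5.45%, where 0.388% of all probe sets were separated in this way. The probe sets of the 55 genes were brighter than most, with a median mean signal of 3133 against array medians of 92.7 to 117 before the filter. The part of signal strength in these shares was not tested. Of 30 further probe sets for 19 of the genes, 25 were tested in 15 genes, and 23 of those had the same sign for stress response as the counted one. The 2 opposite ones belong to SEC31A and SEC63, both with a difference near 0. The further probe set of LRRC59, with a mean of 8.29, was under the filter and gives no second reading.

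Animals of the same group differed in the level of the genes as a whole. For each animal, the median over the 55 genes of the deviation from the mean of that gene over all animals was -0.04, -0.15 and -0.08 in the low-low group and -0.04, -0.01 and -0.10 in the low-high group. It was 0.15, 0.02 and 0.06 in the high-low group and 0.11, -0.12 and 0.28 in the high-high group. High-high 2 lay among the animals with a low stress response, with 15 of 55 genes above their own median, and high-high 3 stood highest, with 45. The lowest was low-low 2, with 6.

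**Figure D3:**
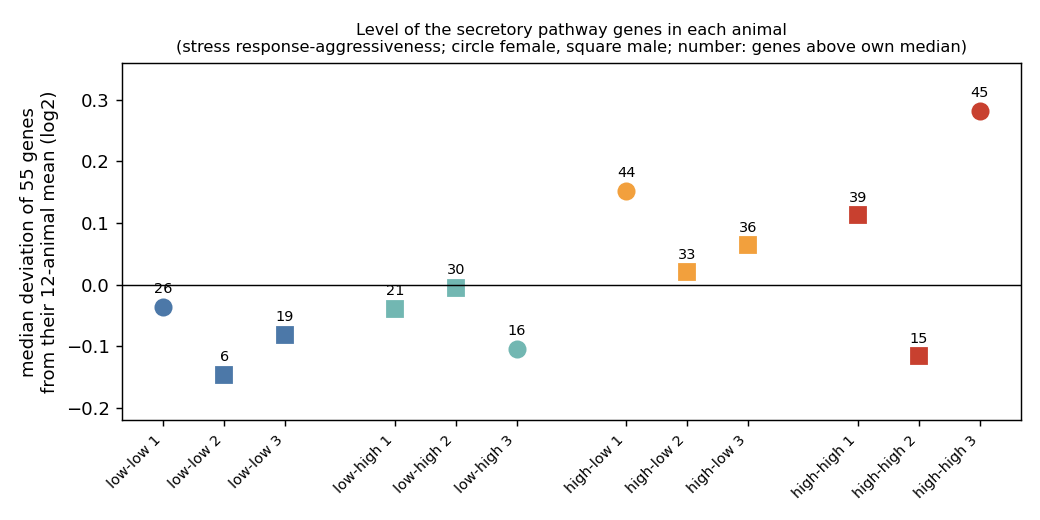
Median deviation of the 55 genes from their mean over all 12 animals (y axis, log2) for each animal (x axis), with the number of genes above their own median beside each point. Of the 6 animals with a high stress response, 5 lie above 0 and high-high 2 lies at -0.12, while all 6 with a low one lie below 0.

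**Figure D4:**
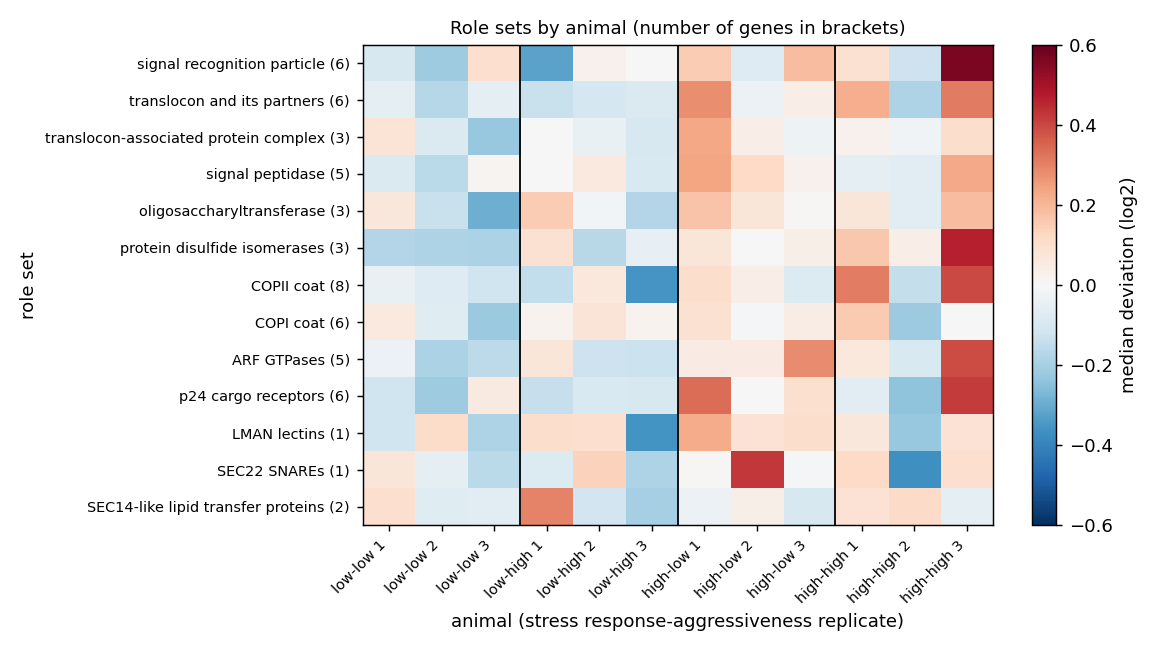
Median deviation (colour, log2) of each role set (y axis, number of genes in brackets) in each animal (x axis, vertical lines between groups). The signal recognition particle in high-high 3 has the highest value, 0.57, and the COPI coat in that animal is at -0.00.

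These differences rested in part on single animals. The count of 11 genes at an unadjusted p under 0.05 became 4 without low-low 1, 7 without low-low 2, 5 without low-high 3, 6 without high-low 3 and 4 without high-high 3. In that order, 4.12%, 4.44%, 4.64%, 3.71% and 3.54% of all probe sets were higher, and 2.45%, 2.73%, 2.12%, 2.74% and 2.21% lower. Without both arrays that correlated least, high-low 3 and high-high 3, it was 3 (LRRC59, SEC23B and SPCS2, the last with the limit given above). All probe sets were then 2.61% higher and 2.33% lower. Without these arrays 45 of 55 genes had a higher mean, with a median of 0.12. The median was 0.11 without low-high 3. Between the 4 females the median difference was 0.33, with 45 of 55 genes higher, and between the 8 males it was 0.10, with 41 higher. All probe sets had a median of -0.02 in females, with 47.6% above 0, and of 0.05 in males, with 58.8% above 0. The sexes were compared after the data were seen and their difference was not tested. In females the pair high-high 3 and low-high 3 gave 0.44 and the pair high-low 1 and low-low 1 gave 0.14.

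Signs of RNA quality and of cell makeup were set beside this. The mean log2 ratio of 3' to 5' control signals was 2.20 ± 0.14 (SD, n = 6) at high and 2.24 ± 0.09 at low stress response, and with it as a covariate the median difference was 0.15. The ratio of the actin control alone was lowest in high-low 1 (4.47) and high-high 3 (4.65), the animals in which the 55 genes stood highest, and from 4.90 to 5.39 in the others. High-low 1 also had the lowest mean ratio, 1.98. For the marker counts that follow, 55.7% of all probe sets had a higher mean, and 5.03% were higher and 3.13% lower at an unadjusted p under 0.05. Summed signals of the hepatocyte markers ran from 388459 to 441447 at high and from 349218 to 498337 at low stress response, and 9 of 12 had a higher mean at high. JCHAIN, the only plasma cell marker above the filter, was lower at high stress response by -0.24 on the log2 scale, with no p under 0.05. Of the Kupffer cell markers 3 of 7 had a higher mean, with sums from 27391 to 34649 at high and from 26079 to 33448 at low, and 1 was higher and 1 lower at an unadjusted p under 0.05. Of the markers of endothelial, stellate, bile duct, T and natural killer, neutrophil and erythroid cells, 2 of 6, 6 of 8, 1 of 4, 2 of 6, 3 of 3 and 3 of 4 had a higher mean, and the summed signals of each list overlapped between the levels. Among them 1 bile duct marker was lower at an unadjusted p under 0.05, by -1.07, and the median of that list was -0.26. The part of these measures in the differences was not tested.

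The same genes were then compared by aggressiveness. Between high and low aggressiveness 32 of 55 genes had a higher mean (58.2%, against 52% of all probe sets), and the median difference was 0.01, as for all probe sets. None of the 55 had an unadjusted p under 0.05, where the background was 3.22%, and limma called 0 of them and 0% of all probe sets after adjustment. The smallest p belonged to SRP68, with 1112, 1402 and 1978 (lowest, median and highest) at high aggressiveness against 879, 1247 and 1454 at low, a difference of 0.22 ± 0.12 (limma, adjusted p = 1.00). COPZ2 had 607, 1657 and 2436 against 1456, 1862 and 2463, a difference of -0.35 ± 0.22. TMED3, close to background, had 49.6, 63.7 and 103 against 49.3, 83.0 and 134, a difference of -0.30 ± 0.20. In all 3 genes the levels overlapped. The log2 ratio of 3' to 5' signal of the EF1A control was 0.891 ± 0.088 (SD, n = 6) at high and 0.721 ± 0.026 at low aggressiveness, and its part in these values was not tested.

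The test of whether the effect of stress response depended on aggressiveness gave 27 of 55 interaction terms above 0 and a median of -0.00. Of all probe sets, 49.4% had a term above 0. No gene had an unadjusted p under 0.05 for the interaction, against a background of 3.87%, and limma called 0 genes and 0% of probe sets after adjustment. COPZ2 came first with an interaction of -0.70 ± 0.42, then SRP72 with 0.44 ± 0.32 and SEC63 with 0.39 ± 0.31. For COPZ2 the difference by stress response was -0.19 ± 0.30 at low aggressiveness, where signals were 1875, 1929 and 1456 against 1849, 2463 and 1714. At high aggressiveness it was -0.89 ± 0.30, with 1246, 1580 and 607 against 1734, 2436 and 1842. SEC63 had 1194, 1087 and 1346 in the high-low and 1245, 1128 and 1662 in the low-low animals, then 1695, 1110 and 1557 in the high-high and 1040, 1169 and 1419 in the low-high animals.

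Within low aggressiveness, 43 of 55 genes had a higher mean at high stress response, with a median of 0.19, where all probe sets had 55.3% higher and a median of 0.03. LRRC59 alone, at 0.77, had an unadjusted p under 0.05, against a background of 3.31% higher and 1.81% lower. Within high aggressiveness the count was 46 of 55 with a median of 0.15, where all probe sets had 52.9% higher and a median of 0.02. There 6 genes were higher (SEC23B, SPCS2, LRRC59, PDIA3, SRP72 and SEC24D) and COPZ2 lower at that threshold, against 3.7% and 2.43%. SPCS2 is among the 6 with the limit given above, as its call is not independent of the filter on low signals. These values rested on single animals. The median within high aggressiveness was 0.05 without high-high 3, with fewer genes at an unadjusted p under 0.05, and 0.05 without low-high 3. With males only it was -0.01, where all probe sets had a median of 0.04. Of the 55 genes, 40 were above 0 at both levels of aggressiveness, 6 below 0 at both and 9 of opposite sign. For aggressiveness within low stress response no gene had an unadjusted p under 0.05 (background 3.19%), and within high stress response COPZ2 had one, at -0.70 (background 3.63%).

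**Figure D5:**
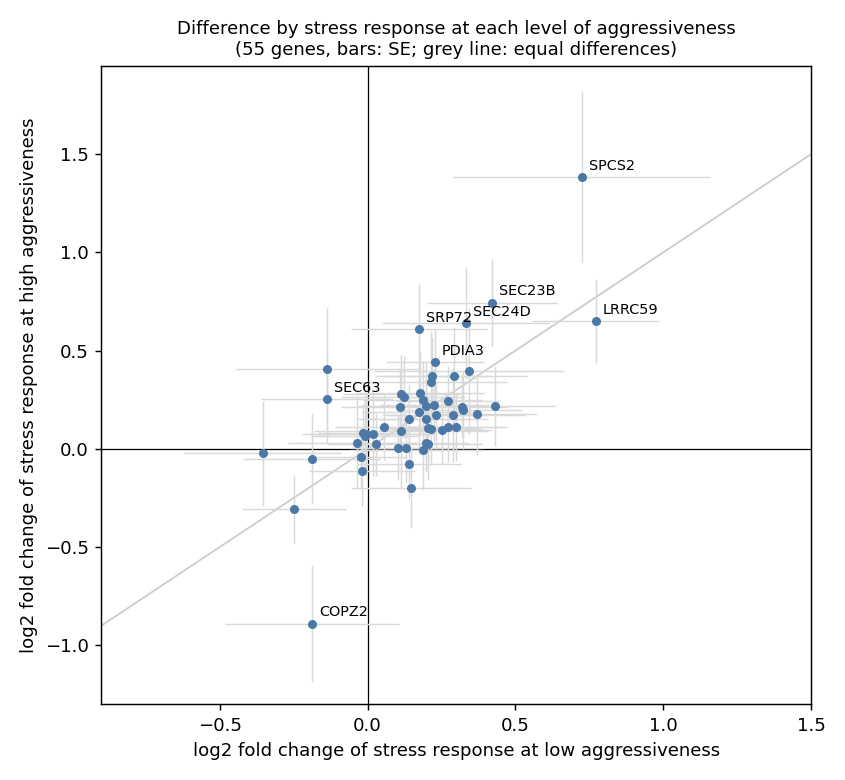
Difference by stress response for each of the 55 genes at low aggressiveness (x axis, log2 fold change) and at high aggressiveness (y axis), each from 3 animals against 3, with bars for the SE and a grey line of equal differences. For 40 genes both values are above 0, and COPZ2 lies lowest, at -0.19 and -0.89.

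Other genes of the route were read from lists that do not overlap the 55. For these counts the background over all probe sets was 55.7% with a higher mean and a median of 0.03, with 5.03% higher and 3.13% lower at an unadjusted p under 0.05. Of 24 further translocation and signal recognition genes, 15 had a higher mean at high stress response (median 0.03), and 4 had an unadjusted p under 0.05, all higher. These were both subunits of the receptor for the signal recognition particle, SRPRB (0.64 ± 0.15) and SRPRA (0.42 ± 0.16), with the ER membrane protein CKAP4 (0.91 ± 0.25) and SERP1 (0.44 ± 0.14), which protects nascent membrane proteins. Among 23 N-glycosylation genes 18 were higher (median 0.10), led by GMPPB, which makes GDP-mannose (0.79 ± 0.21), and the mannosyltransferase ALG2 (0.40 ± 0.14). Of 22 other COPII genes 11 were higher (median -0.02), and PREB, the exchange factor that activates SAR1, differed by 0.37 ± 0.13. Among 25 other COPI and Golgi genes 18 were higher (median 0.14), with GOLT1B at 0.29 ± 0.12 and ACBD3 at 0.30 ± 0.13.

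ER chaperones and sensors of the unfolded protein response had the highest median of these lists: 18 of 21 were higher (median 0.31), and 12 had an unadjusted p under 0.05, all higher (background 5.03% higher). The smallest p belonged to HYOU1 (0.75 ± 0.14), MANF (0.70 ± 0.14), CRELD2 (0.89 ± 0.19) and DNAJB11 (0.47 ± 0.13), all of them proteins of the ER lumen induced when folding is disturbed. HYOU1 had a mean of 2972 ± 777 (SD, n = 6) at high and of 1730 ± 263 at low stress response. Of 14 genes on a list of further oxidoreductases and folding factors 11 were higher (median 0.06). ERLEC1, a lectin on that list and not an oxidoreductase, was at 0.47 ± 0.14, and no other gene of it had an unadjusted p under 0.05. Of 12 genes of ER-associated degradation 10 were higher (median 0.12), with SELENOS at 0.52 ± 0.14. By limma, 0 genes of these lists passed adjustment.

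Plasma proteins are the main cargo of this route in hepatocytes. Of 39 genes for secreted plasma proteins, 17 had a higher mean at high stress response, with a median of -0.01, and none had an unadjusted p under 0.05. For aggressiveness the same 39 gave 36 with a higher mean and a median of 0.12, again with none at that threshold, and 12 of 12 hepatocyte markers had a higher mean, with a median of 0.12. Over all probe sets, 52% had a higher mean at high aggressiveness, with a median of 0.01. Of those markers 8 are also among the 39 genes, so these counts are not separate observations.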

How the data were processed

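The deposited values were probe set signals, a linear intensity that the authors made with GCOS 1.1.1, per the submitters' processing notes. How probes were summarised is not given in the sources used here. The mean after trimming 2% was 500.2 on every array, so arrays had been scaled before deposit, and values were used as deposited. The number of arrays limits the precision.

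Of 24123 probe sets, 124 Affymetrix controls and then the 33.3% with the lowest mean were left out, which kept 15999 with a mean signal of at least 40.6 and 5810 named genes. Symbols came from the platform's table: 10099 probe sets had 1, 198 several and 13826 none. A gene was read from its probe set with the highest mean.

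limma 3.58.1 (R 4.3.3) was fitted to log2(signal + 16) with terms for sex, aggressiveness and stress response (8 residual degrees of freedom), and again with the interaction (7). P-values were two-sided and adjusted by Benjamini-Hochberg over all 15999. They set each difference against the spread between these animals, with a variance that limma moderates over all probe sets. On simulated data, with independent values for each probe set, the fit was only checked to return the simulated differences on average. That check does not cover outlying animals or genes that vary together. Genes named with full values had an unadjusted p under 0.05, or the 3 smallest p, or the highest mean signal of a role set, and from each further list up to 4 with the smallest p. The members, lists and both arrays left out together were chosen with earlier results of these data known. Python 3.11.15 with matplotlib 3.10.9 made the figures.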

Additional observations from a re-analysis of the deposited data

Results flagged for a closer look

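In 64 groups of 6 animals, 3 held a sample far from the other 5 by Dixon's test; chance gives about 1 in 20 such groups. High-high 3 was far above the others for SRP72 at high stress response, with a signal of 2949, and for SRP68 at high aggressiveness, with 1978. High-high 2 was far below them for LMAN2 at high stress response, with 6944. The array of high-high 3 also correlated least with the others.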

How the results depend on the processing

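Over 27 other settings, the median difference of the 55 genes by stress response stayed above 0, from 0.10 to 0.22, and limma called no member after adjustment in any of them. LRRC59 and SEC23B had an unadjusted p under 0.05 in all 27. With each array centred on its median, 42 of 55 genes were higher, with 6 higher and 2 lower at that threshold, and all probe sets were 3.81% higher and 4.08% lower. The count of 11 genes became 3 with males only and 3 without both arrays that correlated least, and ran from 4 to 14 without single animals. With males only, 4.03% of all probe sets were higher and 1.52% lower, and without both arrays 2.61% and 2.33%. Without single animals the shares ran from 3.54% to 5.87% higher and from 2.12% to 3.54% lower. For aggressiveness the count of 0 became 1 with the RNA quality covariate and ran from 0 to 1 without single animals, as it did for the interaction. With males only, the interaction median was -0.15 and the median by stress response within high aggressiveness -0.014. All probe sets then had medians of -0.0085 and 0.040. For aggressiveness within low stress response, the median ran from -0.027 to 0.12 without single animals. With males only, 9 of the 55 genes went from above to below 0, namely LMAN2 (-0.024), SPCS1 (-0.082), TMED2 (-0.011), SEC31A (-0.019), SEC61G (-0.035), TMED3 (-0.052), SSR3 (-0.047), SRP9 (-0.030) and SEC14L1 (-0.027), and 3 went the other way, SEC62 (0.010), COPB1 (0.098) and SEC14L2. SEC31A was also at -0.015 with median centring and ran from -0.012 to 0.079 without single animals. SEC14L2, at -0.00, was 0.047 with quantile normalization, 0.071 with array weights, 0.075 with males only, 0.19 without both arrays and 0.021 with the RNA quality covariate, and ran from -0.065 to 0.097 without single animals. The cause was not tested. No paired analysis was possible because the labels carry no numbers that pair the animals.

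Limits are the 3 animals per group, of which 1 is female, and signals near background for SPCS2 and TMED3.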
